A study of Mus musculus with 27 samples.

Results

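The data described here are the RNA-seq profiles of the tail bud (TB) of E10.5 mouse embryos, 3 of the 27 libraries of a study that grew limb-bud-like tissues from mouse embryonic stem cells. They were set against the 9 libraries of the other E10.5 tissues that are not hindlimb: branchial arch (BA), heart (cardiac tissue, Ca) and forelimb bud (FLB), with 3 libraries each. The remaining 15 libraries are E10.5 hindlimb buds (HLBs), early FLBs and HLBs, and sorted cells of the cultured forelimb- and hindlimb-type tissues. TB, BA, Ca and FLB were untreated tissues of Slc:ICR embryos at E10.5 and carried no transgene named in the labels. According to the methods, tissues were cut from 3 embryos of E10.0 to E10.5, with no sorting named, so each library holds every cell type of the piece. Nothing in the labels says whether the 3 libraries of a tissue came from separate embryos, and the p-values below may therefore measure technical spread alone. A gene was counted as tail-bud-specific when TB differed from the mean of the 3 tissues and also from BA, Ca and FLB singly, in 1 direction in all 4 comparisons. This was called with limma at an adjusted p (Benjamini-Hochberg) under 0.05. The 4 comparisons share the TB libraries, and a gene that passes one is not independent evidence in the next.

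The tail bud is the remnant of the primitive streak at the posterior end of the embryo, and it lengthens the trunk and tail. Its progenitors, which express the T-box factor T (Brachyury), feed both the neural tube and the presomitic mesoderm, and the presomitic mesoderm is cut into somites in a rhythm set by a Notch, FGF and Wnt clock. Fgf and Wnt ligands made at the tip and retinoic acid made by the somites act against each other along this axis, and Hox genes are switched on in the order of their place in the cluster.

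Values are CPM, the counts of a gene divided by all counts of its library and set to a common total, scaled between libraries by a trimmed mean, and are given in the order of replicates 1, 2 and 3. Of 23279 listed genes, 13895 reached 1 CPM in at least 3 of the 12 libraries and were tested on log2(CPM + 0.5). The 12 libraries held 5543750 to 8541937 reads on genes, and those of TB 7616807 to 8443196. A count of 3 reads, used as the floor, is worth 0.351 to 0.541 CPM, and floors cover counting error only. Replicates of TB correlated at 0.993 to 0.994 over genes, and TB correlated with BA at 0.938 to 0.943, with Ca at 0.817 to 0.838 and with FLB at 0.944 to 0.947. Genes are not independent replicates, and these coefficients describe the libraries only.

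Both genes given as tail bud markers were high in all TB libraries. Hoxc10, a posterior Hox gene at chr15:102966796-102971898 (GRCm38, RefSeq), stood at 130.1, 139 and 145 CPM in TB. It was at 0 in all libraries of BA and Ca and at 1.21, 1.5 and 1.75 CPM in FLB. Hoxb9 (chr11:96271330-96276595) stood at 97.2, 99.6 and 103 CPM in TB, at 0 in BA, at 0 to 0.142 in Ca and at 2.67 to 3.51 in FLB. Neither gene overlapped between TB and the 9 other libraries. Of the 13895 genes tested, 1465 lay wholly above the 9 others. Both genes also met the rule for named genes, which required lack of overlap, so the lack of overlap is not a result. TB was 92.6-fold above FLB for Hoxc10 and 33.6-fold for Hoxb9, and at least 393-fold above the floor of BA for Hoxc10. Part of Hoxc10 lies on the same strand as Hoxc5, over 4451 bases in GENCODE, so reads in the shared part cannot be assigned with certainty. Some defining markers of the other tissues were near the floor in TB. The heart factor Nkx2-5 was at 0 in all 3 TB libraries, the ventricular light chain Myl2 at 0.465 to 0.505 CPM, the arch gene Barx1 at 0.353 to 0.631 and the forelimb factor Tbx5 at 0.118 to 0.379. The hindlimb factors were also low, with Pitx1 at 1.01, 0.589 and 0.813 CPM and Tbx4 at 3.66, 0.589 and 1.63. Other markers of heart, arch and limb lay less far below the 3 tissues than Nkx2-5, Myl2, Barx1 and Tbx5. The log2 difference was −1.515 for Tnnt2 of the heart and −0.667 for Lmx1b of the limb, with Dlx5 of the arch between them. The heart list described below summed to 66.6 to 123.3 CPM in TB and 11.2 to 20.7 in FLB. This sum overlapped between TB and BA, and was at least 29978 CPM in Ca.

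**Figure D1:**
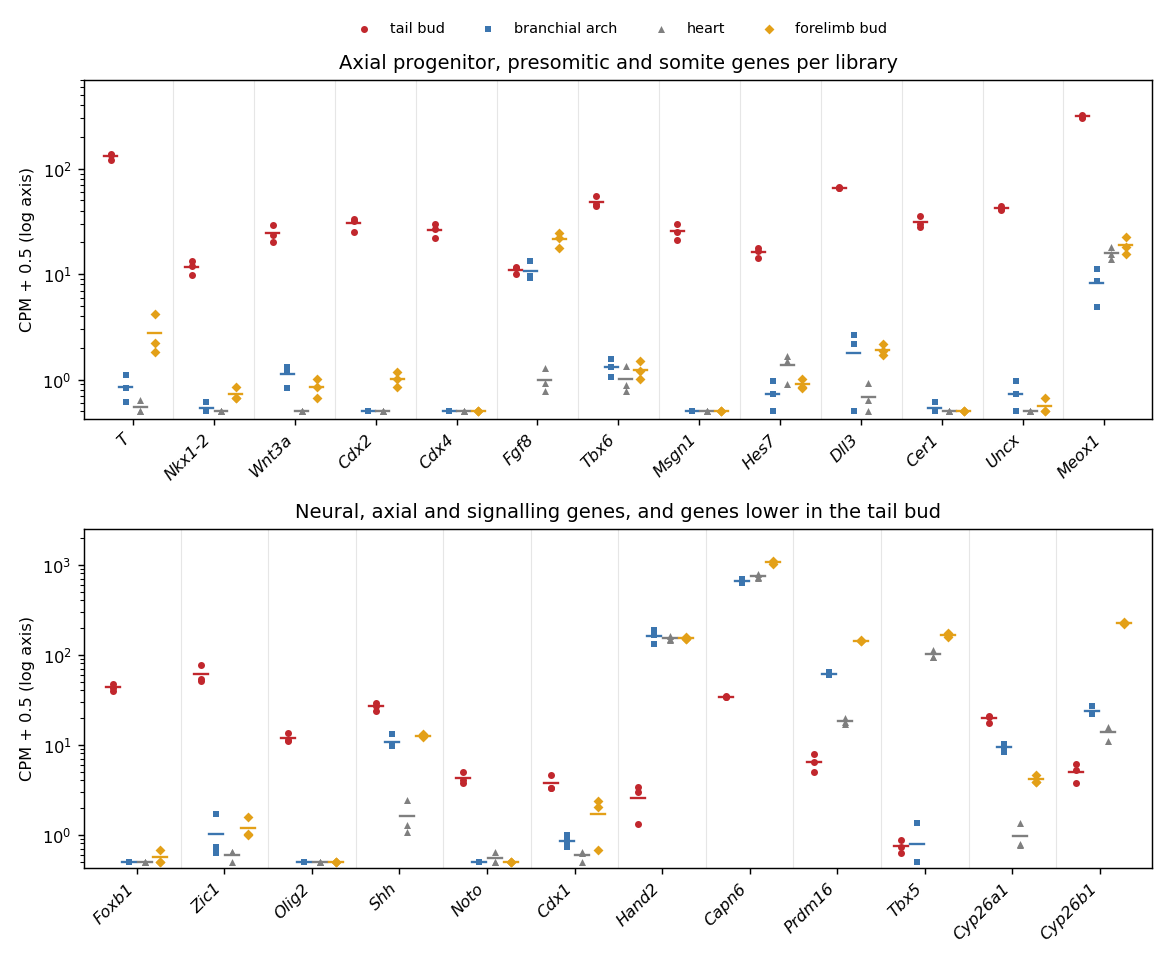
CPM + 0.5 on a log axis for single genes in the 12 compared libraries; points are libraries, bars are means of 3, and shapes and colours mark TB, BA, Ca and FLB. TB stood alone at T, Cdx4, Msgn1, Tbx6, Foxb1 and Olig2, shared its Fgf8 level with BA, and was lowest at Hand2, Capn6 and Prdm16.

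Over the whole transcriptome TB was farthest from Ca. Against Ca, 5276 genes were higher in TB (38% of those tested) and 4987 lower (35.9%). Against BA, 3098 were higher (22.3%) and 2962 lower (21.3%), and against FLB, 3185 were higher (22.9%) and 2949 lower (21.2%). Against the mean of the 3 tissues, 3793 genes were higher (27.3%) and 3869 lower (27.8%). With CPM as deposited, without further scaling, these counts were 4526 and 3292, and those against Ca 6321 and 4146. The requirement of a difference from each tissue reduced these to 1174 tail-bud-specific genes that were higher (8.45%) and 875 that were lower (6.3%). Among the higher genes the nearest tissue was FLB for 465, BA for 430 and Ca for 279, and the median difference to that nearest tissue was 0.45 on the log2 scale. A difference of at least 2-fold from every tissue held for 319 higher genes (2.3%) and 128 lower genes (0.921%). At that threshold 4930572J05Rik was just inside with a log2 difference of 1.006 and Muc1 just outside with 0.9988. On the lower side Panx2 was just inside with −1.002 and Tmtc1 just outside with −0.9978. Of the 319 genes, 130 were under 1 CPM in at least 7 of the 9 other libraries, and so entered the test through TB alone. In these bulk tissues, fewer cells of a type and less RNA per cell cannot be told apart.

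The genes below are grouped in 24 lists, and each list is described by how many of its tested genes were tail-bud-specific. Across all 13895 genes the median log2 difference from the mean of the 3 tissues was −0.01. Of these genes, 8.45% were specific and higher and 6.3% specific and lower, which is the background for the counts below. The lists were chosen with earlier results of these data known, so a share above the background describes a list and does not test it. Members that entered the test through TB alone were favoured to be called higher. Of 270 such genes among all tested, 146 were specific and higher. The number of such members is given with each list that holds any. Where a call was lost in another fit, the value in brackets is the largest of the 4 adjusted p-values of limma in that fit.

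**Figure D2:**
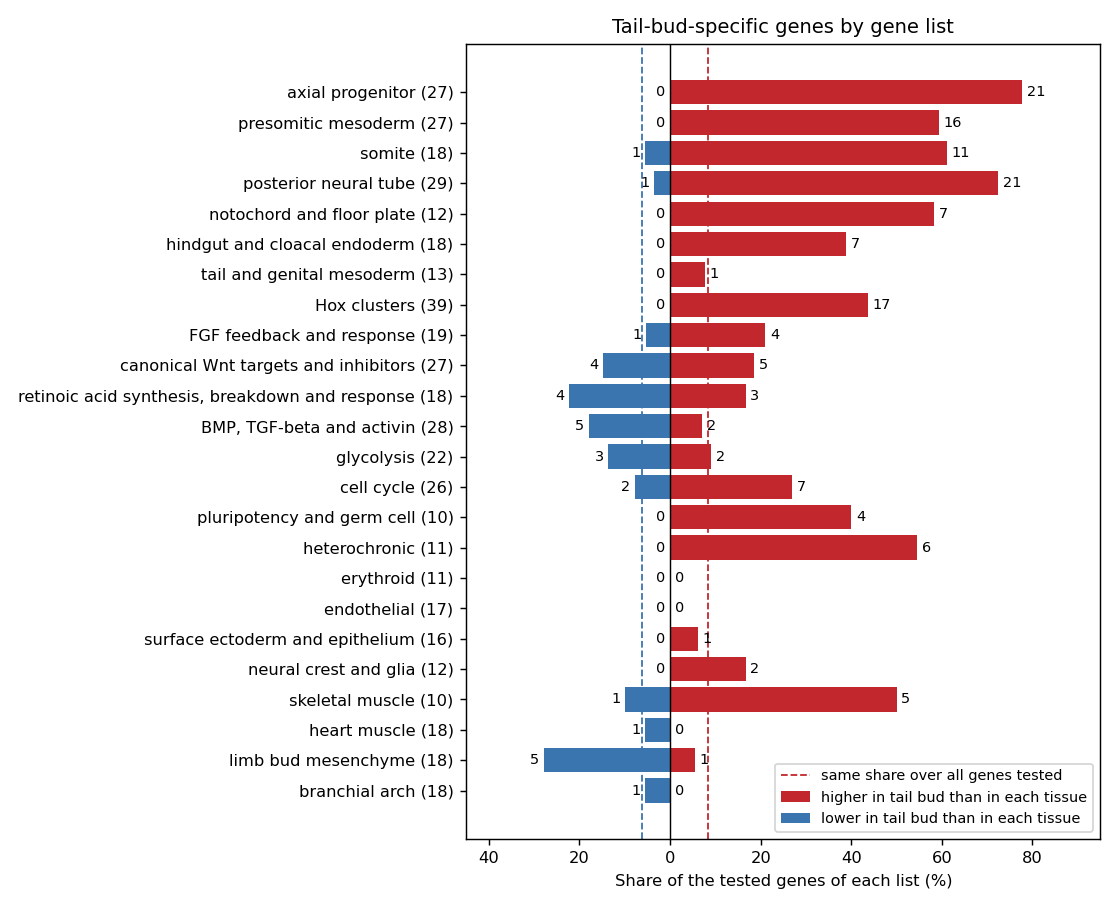
Share of the tested genes of each of the 24 lists that was tail-bud-specific, higher to the right in red and lower to the left in blue, with the number of genes at each bar and the number tested in brackets. Dashed lines give the same shares over all genes tested, 8.45% and 6.3%; 21 of 27 axial progenitor genes and 0 of 11 erythroid genes were higher.

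Genes of the axial progenitors were higher in TB than in each tissue for 21 of 27 tested, and none was lower. The median log2 difference of the list from the 3 tissues was 2.55, and 10 of the 27 entered through TB alone. T (chr17:8434423-8442496), which defines these progenitors, stood at 121, 137 and 133 CPM in TB and at 1.34 to 3.69 CPM in FLB. TB was 58-fold above FLB, and the means of BA and Ca, 0.352 and 0.0461 CPM, were at or under 3 reads. Cdx2, Cdx4 and Cdx1 encode caudal-type homeobox factors that keep posterior growth going and act upstream of Hox genes. Cdx2 was at 24.9, 32.9 and 31.6 CPM in TB, at 0 in BA and Ca and at 0.351 to 0.668 in FLB, at about 3 reads. Cdx4 was at 21.3, 29.3 and 26 CPM in TB and at 0 in all 9 other libraries, and TB was at least 49.6-fold above the floor of FLB. Cdx1 was low, with 2.78, 4.12 and 2.79 CPM in TB against 1.55, 1.84 and 0.175 in FLB, and its call was lost without FLB replicate 3 (adjusted p of limma 0.0515). Cdx2 and Cdx4 entered the test through TB alone, so nothing is read from their distance to the other libraries. Cdx1 came near FLB.

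Among other progenitor factors, Nkx1-2, a homeobox gene of the neuromesodermal progenitors, stood at 9.22, 11.5 and 12.8 CPM in TB and at no more than 0.345 CPM elsewhere. Its position overlaps Fgfr2 on the same strand over 4760 bases in GENCODE, which leaves shared reads uncertain. Evx1 and Sp8 are made in the limb ridge or distal limb as well as at the tail tip, and FLB came nearest for both. Evx1 stood at 20.6, 22 and 24.3 CPM in TB and 10.2, 11.7 and 9.65 in FLB. Sp8 stood at 21.3, 26 and 25.6 CPM in TB and 12.4, 11.2 and 10.53 in FLB. TB was 2.12-fold higher for Evx1 and 2.14-fold for Sp8, with no overlap. Sall4, a zinc-finger factor of stem and progenitor cells, stood at 120.2, 131 and 139.8 CPM against a lowest, median and highest value of 9.96, 19.8 and 26.9 in the 9 other libraries. TB exceeded FLB by 5.35-fold, BA by 6.55-fold and Ca by 11.6-fold (log2 difference from the 3 tissues 2.85 ± 0.09 SE, adjusted p 1.52e-16).

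The presomitic mesoderm list held 16 of 27 tested genes that were higher in TB, none lower, with a median log2 difference of 2.06. Of the 27, 8 entered the test through TB alone. Tbx6 (chr7:126781483-126785548), the T-box factor that fixes paraxial mesoderm fate, stood at 46, 54.5 and 43.3 CPM in TB and at 0.277, 0.702 and 1.08 CPM as the lowest, median and highest of the others. TB was 58.2-fold above BA, 94.1-fold above Ca and 64.7-fold above FLB, and Tbx6 entered the test through TB alone. Msgn1 (chr12:11208382-11208948), which drives cells from the progenitor state into presomitic mesoderm, stood at 20.7, 29.7 and 24.5 CPM in TB and at 0 in all 9 others. Hes7, the oscillating repressor of the segmentation clock, was at 15.9, 17.2 and 13.6 CPM against 0, 0.415 and 1.19 CPM. TB lay above every other library for all 3 genes. This is a description, since Msgn1, like Tbx6, entered the test through TB alone.

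The 250 bases before the start of Msgn1, Tbx6, Hes7 and Cdx4 are shown because these genes mark the presomitic mesoderm or the progenitors and were tail-bud-specific by more than 2-fold. They are given 5′ to 3′ on the strand of the gene from RefSeq on GRCm38.p6. Capitals mark matches on either strand. The letters searched for TCF/LEF, the nuclear effectors of Wnt, were CTTTGA. For RBPJ, the nuclear effector of Notch, they were GTGGGAA. For CDX factors TTTATG was used, and for a TATA box TATAAA. No matches overlap in the windows shown.
Msgn1, chr12:11208949-11209198, minus strand: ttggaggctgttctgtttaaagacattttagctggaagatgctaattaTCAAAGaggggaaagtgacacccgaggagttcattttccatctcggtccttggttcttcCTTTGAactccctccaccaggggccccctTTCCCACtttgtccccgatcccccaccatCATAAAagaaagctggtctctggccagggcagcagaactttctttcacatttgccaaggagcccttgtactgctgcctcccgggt
Tbx6, chr7:126781233-126781482, plus strand: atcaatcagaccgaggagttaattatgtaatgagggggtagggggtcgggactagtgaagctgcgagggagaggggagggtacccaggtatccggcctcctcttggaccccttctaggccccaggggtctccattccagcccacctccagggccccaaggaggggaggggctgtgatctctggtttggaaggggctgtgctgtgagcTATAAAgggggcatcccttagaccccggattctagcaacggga
Hes7, chr11:69120203-69120452, plus strand: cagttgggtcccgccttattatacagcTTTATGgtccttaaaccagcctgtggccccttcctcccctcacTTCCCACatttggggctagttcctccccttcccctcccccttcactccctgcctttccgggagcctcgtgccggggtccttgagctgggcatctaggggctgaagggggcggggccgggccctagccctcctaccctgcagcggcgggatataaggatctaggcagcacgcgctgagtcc
Cdx4, chrX:103321148-103321397, plus strand: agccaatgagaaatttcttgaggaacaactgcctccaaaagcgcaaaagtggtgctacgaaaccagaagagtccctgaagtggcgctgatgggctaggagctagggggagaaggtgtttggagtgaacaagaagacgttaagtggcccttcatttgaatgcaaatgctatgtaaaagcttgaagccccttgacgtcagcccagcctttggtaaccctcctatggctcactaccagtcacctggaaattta
Msgn1 held 2 TCF/LEF matches, at 138 to 143 and 197 to 202 bases before the start, together with 1 RBPJ match at 108 to 114 and 1 CDX match at 80 to 85. Hes7 held an RBPJ match at 174 to 180 bases and a CDX match at 218 to 223. Tbx6 held only a TATA box, 38 to 43 bases before the start, and Cdx4 none of the motifs searched. Of the 27018 genes in the RefSeq table, 14% held TCF/LEF letters in the same window, 5.41% RBPJ, 11.1% CDX and 13% TATA. Among the 9883 tested genes found in that table the shares were 10.6%, 5.45%, 5.72% and 6.36%. The T-box letters GGTGTG, held by 16.2% of all genes, were not in any of the 4 windows. Nor was the E-box of Hes factors, CACGTG, which 6.05% of all genes held. A match describes letters and not a bound site, and no match says only that these letters are not in the window.

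Notch components of the clock were higher as well. The ligand Dll1 stood at 111, 109 and 114 CPM in TB, 26.1-fold above BA, 7.23-fold above Ca and 23.9-fold above FLB. On the log2 scale Dll1 exceeded the 3 tissues by 3.95 ± 0.13 (adjusted p 2.71e-16). The ligand-like inhibitor Dll3 stood at 64.7, 67.1 and 64.8 CPM in TB and at 1.23 to 1.67 in FLB. The glycosyltransferase Lfng, which modifies Notch, was at 52.8, 57.1 and 54.3 CPM against 5.68, 7.19 and 10.53 CPM elsewhere. The receptor Notch1 was expressed in every tissue, and TB was 2.24-fold above BA, 2.67-fold above Ca and 2.73-fold above FLB. The segment boundary genes Mesp2 and Ripply2 were lower in level and entered the test through TB alone. Mesp2, which sets the boundary, stood at 5.05, 6.24 and 7.9 CPM, and Ripply2, which ends its action, at 3.92, 3.77 and 3.72, with no value above 0.427 CPM in the others. Cer1, a secreted antagonist of BMP and Nodal in the anterior presomitic mesoderm, stood at 27.4, 35.1 and 29.6 CPM, with 1 of the 9 other libraries above 0. Heyl was higher as well, but was not called when each tissue was fitted with TB alone (adjusted p 0.0528 with limma).

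Somite genes were higher for 11 of 18 tested and lower for 1, with a median log2 difference of 2.38, and 1 of the 18 entered through TB alone. Meox1, a homeobox factor of the whole somite, stood at 309.8, 326 and 306 CPM in TB against 4.43, 15.1 and 21.9 CPM in the others (log2 difference from the 3 tissues 4.58 ± 0.22, adjusted p 1.58e-07). Uncx, which marks the posterior part of each somite, stood at 44.1, 40.0 and 41.4 CPM and at no more than 0.479 elsewhere. Pax3 of the dermomyotome was at 78.4, 94.8 and 81.6 CPM and 4.94-fold above FLB. The sclerotome gene Pax1 was at 101.3, 88 and 102 CPM in TB and at 46.4, 36.7 and 51.4 in FLB, so it was nearest to FLB. Its call was lost without Ca replicate 3, FLB replicate 1, FLB replicate 2, TB replicate 1 or TB replicate 3, with a largest adjusted p of limma between 0.0503 and 0.0862. The call of Pax1 was also lost with a pseudocount of 0.1 (0.249) and with the 9 other libraries as 1 group (0.105). The exception in the list was Scx, a factor of tendon progenitors, which fell, with 1.14, 0.353 and 0.697 CPM in TB against 3.17, 16.6 and 47 CPM in the others. Skeletal muscle genes followed the somites in part. Myog, a myogenic factor, was higher at 23.6, 19.3 and 15.3 CPM against 0.285, 3.41 and 7.72, a call lost with a pseudocount of 0.1 (0.0706), while Myod1 was at 0.631, 0.471 and 0 CPM. Myod1 was called lower although TB overlapped Ca, and the call was lost without TB replicate 2 or 3, Ca replicate 1 or 3, or FLB replicate 1 or 2 (0.0522 to 0.212). TB replicate 1 was the highest for the muscle myosin Myh3, with 12.6, 3.3 and 3.49 CPM, whose call was lost with limma-voom (0.0623). The call of Myf5, an early myogenic factor at 13.3, 8.71 and 9.99 CPM, was lost without FLB replicate 1 (0.0858) or without TB replicate 1 (0.0974).

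Posterior neural tube genes were higher in TB for 21 of 29 tested, with a median log2 difference of 3.58, and 15 of the 29 entered through TB alone. Foxb1, a forkhead factor of the neural tube, stood at 38.9, 46.5 and 42.5 CPM, with 1 of the 9 others above 0, at 0.172 CPM. It shares 2201 bases with the antisense gene B230323A14Rik. Zic1 of the dorsal neural tube stood at 75.8, 52.6 and 50.5 CPM against 0, 0.227 and 1.2 CPM and overlaps Zic4 on the opposite strand over 3398 bases. The general neural factor Sox2 stood at 64.3, 61.7 and 61.6 CPM in TB. BA held 14.5 to 15.8 CPM of Sox2, 4.08-fold less than TB, and FLB 110.1-fold less. The levels of TB were above those of BA and FLB in every library. Genes of single dorsoventral domains were also present. Olig2 of the motor neuron domain stood at 13, 10.48 and 10.7 CPM and Msx3 of the dorsal tube at 19.95, 17.5 and 15.6, and both were at 0 in all 9 others. Pax6 was at 25.4, 24.6 and 24.3 CPM and the roof plate ligand Wnt1 at 8.34, 7.65 and 7.44, with at most 1.08 and 0.142 CPM elsewhere.

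The genes of differentiated neurons in the list were mixed. Dcx, a microtubule protein of migrating neurons, fell, with 4.17, 1.3 and 1.39 CPM in TB, 32.5, 13.1 and 23.2 in BA and 87.1, 91.9 and 95.8 in FLB. The call of Dcx was lost with limma-voom on recovered reads (adjusted p 0.0743). The neurofilament Nefl was at 12.8, 8.12 and 9.76 CPM in TB and at 42.2, 5.88 and 28 in BA, and no difference from the 3 tissues passed (log2 difference 0.70 ± 0.58 SE, adjusted p 0.345, limma). Elavl3, an RNA-binding protein of neurons, was higher than the 3 tissues at 9.22, 6.36 and 7.55 CPM (log2 difference 2.00 ± 0.44, adjusted p 0.00283) but overlapped BA at 14.6, 2.35 and 8.26 and did not pass against it. The tubulin Tubb3 and the stathmin Stmn2 did not pass against the 3 tissues, at −0.36 ± 0.39 and −0.19 ± 0.52 on the log2 scale. The BA libraries disagreed among themselves in Dcx and Nefl, replicate 2 being the lowest in both, and BA replicate 3 was the single BA library with reads of the ventral neural factor Nkx6-1, at 2.04 CPM. The part of this spread in the BA comparisons was not tested. Calls that depended on 1 library were Gbx2, lost without BA replicate 1 or 3 or without any one TB library (0.0584 to 0.135). Neurog1 was lost in 9 of 12 such fits (0.0509 to 0.121), and Sox3 without Ca replicate 2 (0.0662) or TB replicate 1 (0.0508). With a pseudocount of 0.1, Gbx2 (0.388) and Sox3 (0.217) were lost as well. Neurog1 was also lost when each tissue was fitted with TB alone (0.211).

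Notochord and floor plate genes were higher for 7 of 12 tested and hindgut genes for 7 of 18, with median log2 differences of 1.90 and 1.34 and none lower. Of these, 1 and 4 entered through TB alone. Noto, a homeobox gene of the posterior notochord, stood at 3.28, 3.53 and 4.42 CPM in TB and was above 0 in 1 of the 9 others. Shh, the ligand of notochord and floor plate that is also made by the limb's polarizing zone, stood at 26.4, 23.1 and 28.8 CPM in TB, 9.09, 9.41 and 12.5 in BA and 12.1, 12.5 and 11.6 in FLB. TB exceeded both by more than the spread, at 2.53-fold and 2.16-fold. Foxa2, shared by floor plate and endoderm, stood at 6.95, 7.89 and 9.18 CPM and at 0 in FLB. Ntn1 was nearest to Ca, at 214, 210.3 and 204 CPM against 161, 132 and 158, and its call was lost without Ca replicate 2 (0.0611). Foxa3, Hnf4a, Hnf4g, Ihh, Trh and Tff3 of the hindgut list did not reach the filter.

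Tail and genital mesoderm was the mesodermal list that did not follow. Of 13 tested genes 1 was higher, Pax2 of the nephric lineage at 3.92, 4.12 and 4.07 CPM, and none was lower, with a median log2 difference of −0.64. The share of higher genes, 1 of 13, was near the 8.45% of all genes. Isl1, a LIM homeobox factor of posterior mesoderm and motor neurons, stood at 24.8, 11.8 and 19.5 CPM in TB and at 25.5, 17.2 and 20.6 in BA and overlapped BA.

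All 39 Hox genes were tested, and all 39 were higher in TB than the mean of the 3 tissues, against a background of 27.3%. Of these, 17 were tail-bud-specific. Against FLB singly, the same number, 17, were higher in TB (background 22.9%) and 7 were lower, and the others did not pass. Against BA, 38 of 39 were higher (background 22.3%), and Hoxa2, a gene of the hindbrain and second arch, was lower. The specific genes were spread unevenly over the clusters, with 7 of 10 in Hoxb, 6 of 9 in Hoxc, 3 of 9 in Hoxd and 1 of 11 in Hoxa. By position, 6 of 12 genes of paralogue groups 1 to 4 were specific, 4 of 11 of groups 5 to 8, 2 of 4 of group 9 and 5 of 12 of groups 10 to 13. The median log2 difference from the mean of the 3 tissues rose along these groups from 2.05 to 3.04, 4.14 and 4.88. Over all 39 genes the median was 5.04 against BA and 4.91 against Ca, but 0.64 against FLB. Medians by paralogue group were not taken against FLB singly, so the rise is not shown for that tissue. Of the 39 genes, 6 entered the test through TB alone.

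**Figure D3:**
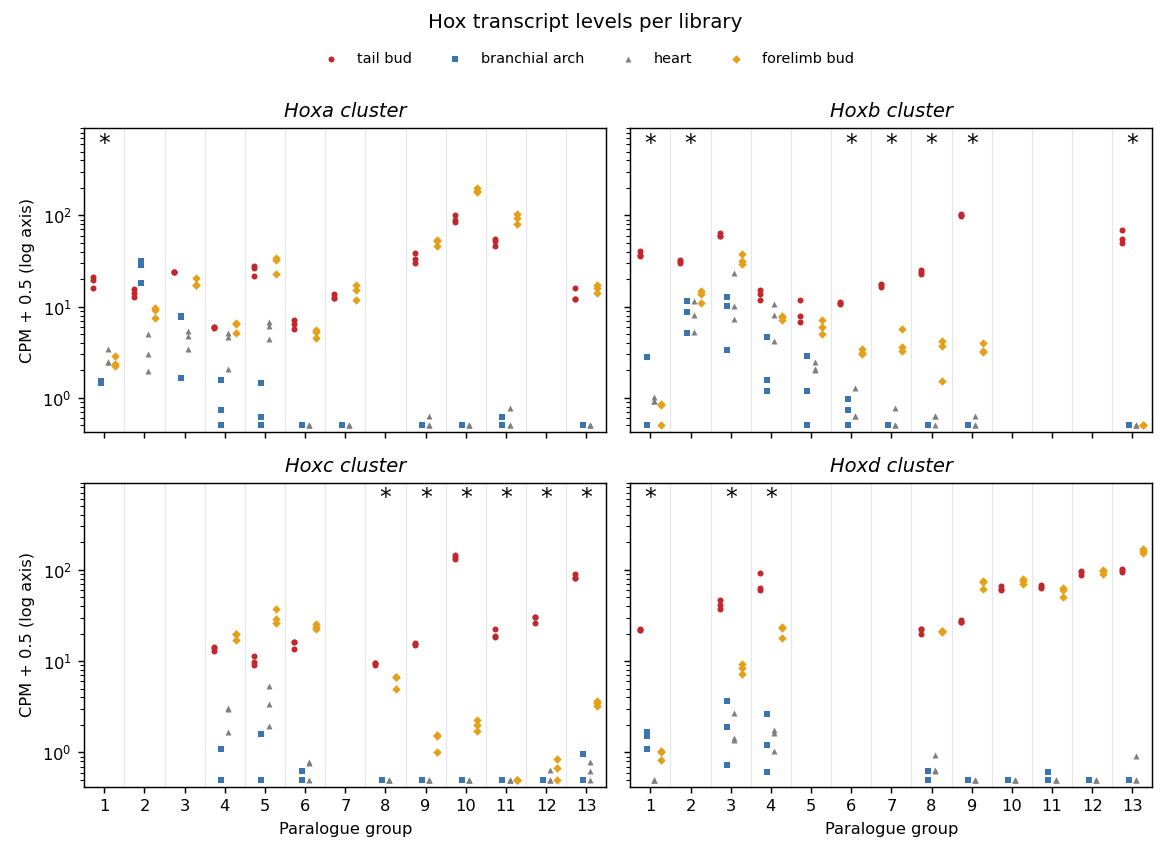
CPM + 0.5 on a log axis for each Hox gene by paralogue group, 1 panel per cluster; every point is 1 library and an asterisk marks tail-bud-specific genes, all of them higher. In the posterior Hoxc cluster the TB points stood apart from FLB, whereas Hoxd12 and Hoxa13 overlapped between TB and FLB, and Hoxa10 and Hoxd13 were lower in TB.

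In the Hoxc cluster the anterior genes were not specific and the posterior genes were. At its anterior end Hoxc4 was at 13.9, 13.54 and 12.3 CPM in TB and 16.4, 19.2 and 19.3 in FLB. Hoxc5 was at 10.9, 8.6 and 9.3 CPM in TB and 28.3, 25.4 and 37 in FLB. TB was lower than FLB for Hoxc5 (log2 difference −1.60 ± 0.47, adjusted p 0.0193), and Hoxc4 did not pass (−0.45 ± 0.27, 0.196). In GENCODE, Hoxc5 shares 3505 bases with Hoxc8 and 8661 with Hoxc9 on the same strand. Reads in the shared parts cannot be assigned with certainty. From Hoxc9 to Hoxc13 the order turned. Hoxc9 was at 15.3, 14.5 and 14.8 CPM in TB and 0.517 to 1.05 in FLB, 17.3-fold lower. Hoxc11 was at 22.1, 18.5 and 17.9 CPM in TB and at 0 in all 9 others, Hoxc12 at 30.2, 29.6 and 25.7 against no more than 0.351, and Hoxc13 at 81.3, 89.7 and 79.8 against 2.76 to 3.159 in FLB. Hoxc8 lay between these, at 9.09, 9.07 and 8.6 CPM in TB and 6.21, 6.18 and 4.39 in FLB. Its call was lost without FLB replicate 3 (0.132), without any one TB library (0.0664 to 0.0813) or with a pseudocount of 0.1 (0.185).

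Hoxb genes were specific at both ends of the cluster. Hoxb1, an anterior gene that is also used early in the posterior embryo, stood at 35.2, 36.1 and 40.7 CPM in TB and at 0, 0.351 and 2.27 CPM as the lowest, median and highest of the others, the highest being BA replicate 3. Hoxb13 (chr11:96194316-96196610), the last gene of the cluster, stood at 54.8, 69.1 and 49.7 CPM and at 0 in all 9 others, at least 112-fold above the floor of FLB. Hoxb8 was at 24.9, 23.7 and 22.3 CPM against 1.03 to 3.69 in FLB.

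Posterior Hoxa and Hoxd genes were shared with the forelimb, where they pattern the distal limb. Hoxd12 was at 86.9, 93 and 95.9 CPM in TB and 100.2, 89.9 and 97.4 in FLB, with a log2 difference of −0.06 ± 0.15. Hoxa13 was at 11.7, 15.4 and 11.7 CPM in TB and 16.9, 13.7 and 15.6 in FLB (−0.25 ± 0.21). Both pairs overlapped and neither passed. Hoxd13 was lower in TB than in FLB, at 93.2, 99.6 and 102 against 159.5, 153 and 167 CPM. Hoxa10 was lower as well, at 83.7, 87.5 and 99.5 against 185, 199 and 179.5 CPM. At the anterior end Hoxd1, Hoxd3 and Hoxd4 were specific, with Hoxd1 at 21.2, 21.4 and 22.2 CPM in TB and at most 1.18 CPM elsewhere. Hoxd3 and Hoxd4 share 17232 bases on 1 strand, so their values cannot be separated with certainty. Hoxd3 was at 45.7, 36.5 and 40.2 CPM in TB, and Hoxd4 at 90.6, 59.9 and 62.4. The call of Hoxd4 was lost with a pseudocount of 0.1 (0.093).

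Fgf ligands of the tail tip divided into those that TB shared and those that it did not. Fgf17 stood at 17.4, 21 and 25.1 CPM in TB, 45.5-fold above BA and 21.8-fold above FLB. Fgf3 stood at 9.72, 13.2 and 8.95 CPM and at no more than 0.277 CPM in the others. Fgf18 was at 12.3, 16.2 and 11.5 CPM against 4.48, 5.85 and 3.86 in FLB, and Fgf4, also a ligand of the limb ridge, at 3.03, 4 and 2.79 against 1.21, 1.84 and 0.877. All 4 were tail-bud-specific, though Fgf4 was lost with a pseudocount of 0.1 (0.0514). Fgf8, the best known ligand of the tail bud and of the limb ridge, was not. It stood at 10.9, 9.54 and 11.2 CPM in TB, 9.09, 12.7 and 8.62 in BA, 0.277 to 0.793 in Ca and 17.2, 24.1 and 21.6 in FLB. TB overlapped BA (log2 difference 0.07 ± 0.20, adjusted p 0.815) and was below FLB (−0.95 ± 0.20, 0.000482).

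Of 19 tested genes of FGF feedback and response, 4 were higher in TB, 1 was lower, and the median log2 difference was 0.27. Over all genes 8.45% were higher and 6.3% lower, so the lower count was near the background. The phosphatase gene Dusp4 was higher at 74.9, 82.7 and 85.3 CPM against 11.4, 26 and 29.9 CPM, as were Spred2, Fgfr3 and Fgfbp3. Feedback genes that the limb ridge induces were lower than in FLB, with Dusp6 at 108, 111 and 125 CPM against 233, 228 and 214 and Spry4 at 23.9, 20.02 and 22.5 against 38.8, 40.1 and 34.2. For Dusp6 TB and BA overlapped. Etv1, an ETS factor, fell, with 10.48, 7.42 and 7.9 CPM in TB against 12.2, 24.8 and 29.3. Singly against FLB, 5 of the 19 were higher and 11 lower, and against Ca 16 were higher and 3 lower. Over all genes these shares were 22.9% and 21.2% against FLB and 38% and 35.9% against Ca, so the count of genes higher than in FLB was near the background.

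**Figure D4:**
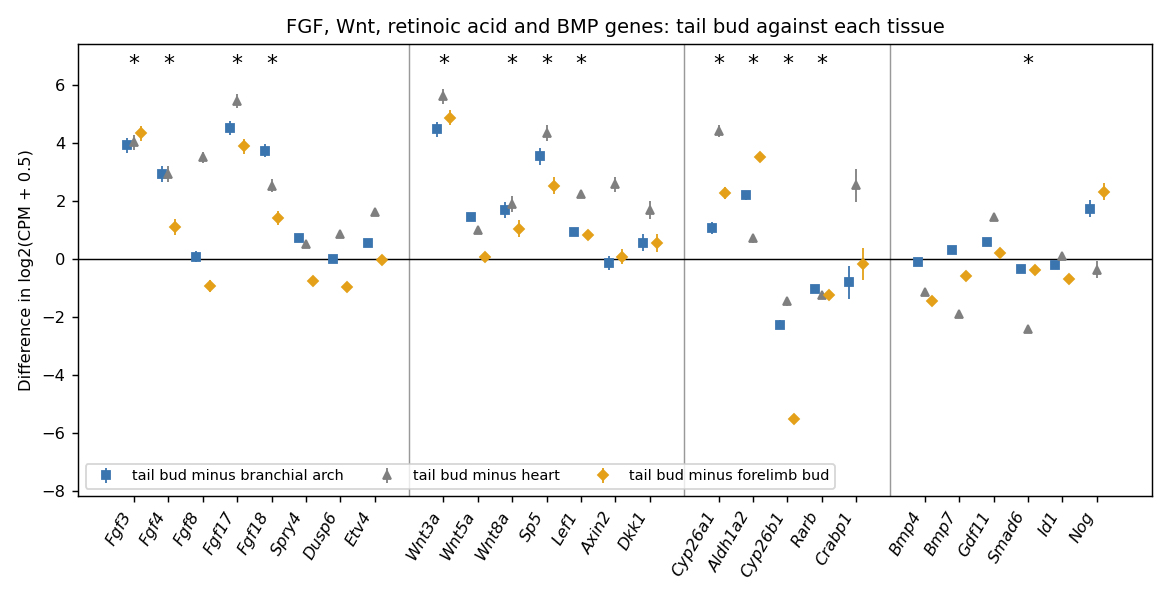
Differences in log2(CPM + 0.5) of TB from BA, Ca and FLB, with the standard error of the fit as bars, for genes of FGF, Wnt, retinoic acid and BMP signalling separated by vertical lines; asterisks mark tail-bud-specific genes. Wnt3a and Fgf17 lay above 0 against all 3 tissues, Cyp26b1 and Rarb below 0 against all 3, and Fgf8 above 0 against Ca and below 0 against FLB.

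Wnt3a, the ligand that maintains the progenitors, stood at 19.8, 29 and 23.2 CPM in TB and at 0, 0.341 and 0.824 CPM in the others, 38.3-fold below TB in BA. Wnt8a was low and entered the test through TB alone, at 1.14, 1.65 and 1.28 CPM against no more than 0.517. Wnt5a, a ligand that orients cell movement in growing tissue, was at 159, 197 and 194 CPM in TB and 181, 177 and 173 in FLB, and the 2 tissues overlapped (log2 difference 0.04 ± 0.12). Of 27 tested Wnt targets and inhibitors, 5 were higher and 4 lower, against 8.45% and 6.3% of all genes. The median log2 difference of the list was 0.24. Sp5, a direct target, was 14.6-fold above BA and 6.18-fold above FLB, and Lef1, a nuclear effector, 1.89-fold and 1.76-fold. The widely used target Axin2 stood at 104, 105 and 98.1 CPM in TB, 127, 107 and 109 in BA and 94.7, 98.2 and 100.9 in FLB. It overlapped FLB, and lay below BA by less than the test could call (log2 difference −0.15 ± 0.25, adjusted p 0.667). Tcf7l2, Dkk2, Sfrp1 and Bambi fell, Sfrp1, a secreted inhibitor, from 141, 151 and 290.3 CPM as the lowest, median and highest of the others to 89.2, 85.8 and 82.4.

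Retinoic acid genes were higher in TB for 3 of 18 and lower for 4, against 8.45% and 6.3% of all genes. Their median log2 difference was 0.18. Cyp26a1, which breaks retinoic acid down at the tail tip, stood at 16.9, 20.3 and 19.99 CPM in TB, 7.84, 9.18 and 9.7 in BA and 4.14, 3.34 and 3.33 in FLB. Aldh1a2, which makes it in somites, stood at 92.4, 75.2 and 85.4 CPM, 12.2-fold above FLB and 1.59-fold above Ca. The producing and the degrading enzyme were thus both higher in this dissected tissue. Cyp26b1, the form of the limb and arches, fell, at 5.56, 4.71 and 3.25 CPM in TB and 227, 225 and 220.1 in FLB, 49.8-fold more than TB. The receptor Rarb, itself a target of retinoic acid, was at 12.1, 8.24 and 8.25 CPM against 18.2, 21.4 and 26.8 CPM, and Rara and Rxrg were also lower. Rara was lost without Ca replicate 3 (0.0561) and with CPM as deposited (0.145), and Rxrg without FLB replicate 1, TB replicate 2 or TB replicate 3 (0.0548 to 0.0566). The reductase gene Dhrs3 was lost without FLB replicate 1 (0.127) or TB replicate 1 (0.0804).

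Of 28 BMP, TGF-beta and activin genes, 2 were higher, a share near the 8.45% of all genes. A further 5 were lower, against 6.3% of all genes, and the median log2 difference was −0.28. The inhibitors Smad6 and Smad7, the pseudoreceptor Bambi, the ligand Gdf6 and the target Id2 were lower, Smad6 at 21.1, 19.5 and 19.2 CPM in TB against 26.3, 23.5 and 28.3 in BA and 27.4, 22 and 29.1 in FLB. The ligand Bmp4 was 2.27-fold higher in Ca and 2.82-fold higher in FLB than in TB, but overlapped BA at 24.8, 25.7 and 29.3 against 24, 24.6 and 25.3 CPM. Gdf11, a ligand that times the passage from trunk to tail, stood at 44.3, 45.3 and 46 CPM in TB and 36.6, 40.8 and 40.5 in FLB, and did not pass against FLB (log2 difference 0.20 ± 0.09, adjusted p 0.0832). The activin antagonist Fst was higher, at 16.3, 15.4 and 17 CPM against 2.61, 3.17 and 5.81.

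Of 11 heterochronic and growth genes, 6 were higher in TB (Lin28a, Lin28b, Trim71, Mycn, Myc and Dnmt3b) and none lower, with a median of 0.76. Lin28a, an RNA-binding protein of early embryonic cells, stood at 96.1, 122 and 130.5 CPM against 6.21, 12.4 and 17.7 CPM (log2 difference from the 3 tissues 3.37 ± 0.24, adjusted p 1.47e-06). Myc was at 78.1, 78.8 and 78 CPM against 25.6, 33.3 and 51.3, and its TB values lay within 1 CPM of each other. Cell cycle genes were higher for 7 of 26, against 8.45% of all genes. They were lower for 2, near the 6.3% of all genes. The differences were small, with the replication factor Mcm2 at 1.19-fold of BA and 1.14-fold of FLB. Mcm4 was lost without BA replicate 1 (0.0922) or TB replicate 2 (0.0606). The cell cycle inhibitor Cdkn1c fell, at 254, 212 and 210.3 CPM in TB, 326 to 373 in BA, 493 to 529.8 in FLB and 1402 to 1585 in Ca.

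Glycolysis genes were higher for 2 of 22, near the 8.45% of all genes, and lower for 3. The glucose transporter Slc2a3 stood at 311, 381 and 373 CPM against 77.3, 96.9 and 145 CPM, 2.49-fold above FLB, and the enolase Eno1 was 1.72-fold above FLB. Hk1, Pfkm and Ldhb fell, Ldhb from 246, 267 and 348 CPM in the others to 124, 125 and 121. Singly, 16 of 22 were higher in TB than in BA and 17 higher than in FLB, while 17 were lower than in Ca, where the shares of all genes were 22.3%, 22.9% and 35.9%. Of the pluripotency and germ cell list, 10 of 21 genes were tested and 4 were higher, namely Sox2, Sall4, Lin28a and Alpl. Sox2, Sall4 and Lin28a also stand in the neural tube or axial progenitor lists. Pou5f1, Nanog, Dppa3 and Ddx4 were among the 11 that did not reach the filter.

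Among genes lower in TB than in each tissue and with at least 16 CPM in each of the others, Hand2 and Capn6 had the largest differences. Hand2 (chr8:57320983-57324517), a factor of limb, heart and arch mesenchyme that shares 3251 bases with the opposite-strand Hand2os1, stood at 2.9, 0.824 and 2.44 CPM in TB and at 129, 149.8 and 187 CPM in the others. BA was 77.8-fold above TB, Ca 73.4-fold and FLB 73.7-fold (log2 difference from the 3 tissues −6.02 ± 0.26, adjusted p 1.11e-07). Capn6 (chrX:143802236-143827412), a calpain-like protein that stabilizes microtubules, stood at 33.8, 33.4 and 32.9 CPM in TB and at 626, 725 and 1104 CPM, 19.8-fold above TB in BA. The zinc-finger factor Prdm16 was at 7.45, 5.89 and 4.42 CPM against 16.2, 60.49 and 146. Lack of overlap between TB and the others was required for these genes to be named, so it is not a result. Of all genes tested, 7.4% lay wholly below the 9 other libraries (1028 genes, against 1465 wholly above). A further 6 of the 10 lower genes taken by size were 5930403L14Rik, Cdo1, Mab21l2, Synpo, Col12a1 and Nrk, whose log2 differences from the 3 tissues lay between −3.70 and −2.98. Mab21l2 lies inside Lrba on the opposite strand.

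The limb bud list fell for 5 of 18 genes and was higher for 1, Shh, against 6.3% and 8.45% of all genes. Fgf10, the ligand of limb mesenchyme, was at 1.77, 1.53 and 1.63 CPM in TB against 8.59, 15.7 and 33.6. Shox2, which patterns the proximal limb, was at 0, 0 and 0.116 CPM against 92.4 to 99.9 in FLB and 8.74 or more in BA and Ca. Hand1 was at 0 in all TB libraries and at 0.668 to 1.4 CPM in FLB, its lowest tissue. It was the single lower gene of both the heart list and the branchial arch list, in each a share near the 6.3% of all genes. Of the heart list 17 of 18 were lower than the mean of the 3 tissues, against a background of 27.8%. Singly, all 18 were lower than in Ca, 4 were higher and 2 lower than in BA, and 7 were higher and 3 lower than in FLB. Over all genes, 35.9% were lower than in Ca. The shares higher and lower were 22.3% and 21.3% against BA and 22.9% and 21.2% against FLB. The count of heart genes higher than in BA was thus near the background.

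Markers of cell types that any of the tissues can hold were compared beside these results, and their part in them was not tested. Over all genes, 22.3% were higher in TB than in BA, 22.9% higher than in FLB and 35.9% lower than in Ca. Of 11 tested erythroid genes, 0 were tail-bud-specific, but all 11 were higher in TB than in BA and than in FLB, and all 11 lower than in Ca. Their summed level was 6084 to 7066 CPM in TB, 3023 to 3691 in BA, 2925 to 4199 in FLB and 25269 to 36677 in Ca. Of 17 endothelial genes, 0 were specific, 10 were higher than in BA, 8 higher than in FLB and 14 lower than in Ca. Their summed level was 611 to 661 CPM in TB, 467 to 549 in BA, 524 to 537 in FLB and 1569 to 1672 in Ca. Surface epithelium genes summed to 424 to 455 CPM in TB and 434 to 455 in FLB. In this list 1 of 16, Fgfbp1, was higher, a share near the 8.45% of all genes. Of 12 neural crest and glia genes 2 were higher, against 8.45% of all genes. Foxd3 was at 7.58, 9.77 and 8.25 CPM against 0, 0.824 and 2.75. Ret was at 6.44, 6.36 and 5.46 CPM against 0.351, 1.02 and 4.67.

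The E10.5 HLBs, which took no part in the calls, gave a second posterior tissue. Among the 1174 higher genes, 848 (72.2%) were below TB in every E10.5 HLB library with a value, and 402 (34.2%) had all HLB values above the 9 libraries of BA, Ca and FLB. Among the 319 genes over 2-fold these shares were 308 (96.6%) and 30 (9.4%). Over all 13895 genes tested they were 27.4% and 10.1%. The higher genes were chosen for high TB values and for lower values in the 9 other libraries. Both shares depend on that choice, and nothing is read from either. Hoxc10 had all HLB values above the 9 libraries, with 133, 133 and 139 CPM in HLBs against 130.1, 139 and 145 in TB. The given marker thus did not separate TB from HLBs. Lin28a also overlapped, at 109, 123 and 91.8 CPM in HLBs. Hoxb9 stood at 16.3, 19.1 and 15.3 CPM in HLBs, Hoxc13 at 1.07 to 1.28 and Hoxb13 at 0 to 0.18, all under every TB library. TB and HLBs were not tested against each other, and E10.5 HLB replicate 2 had no value for some chromosomes.

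**Figure D5:**
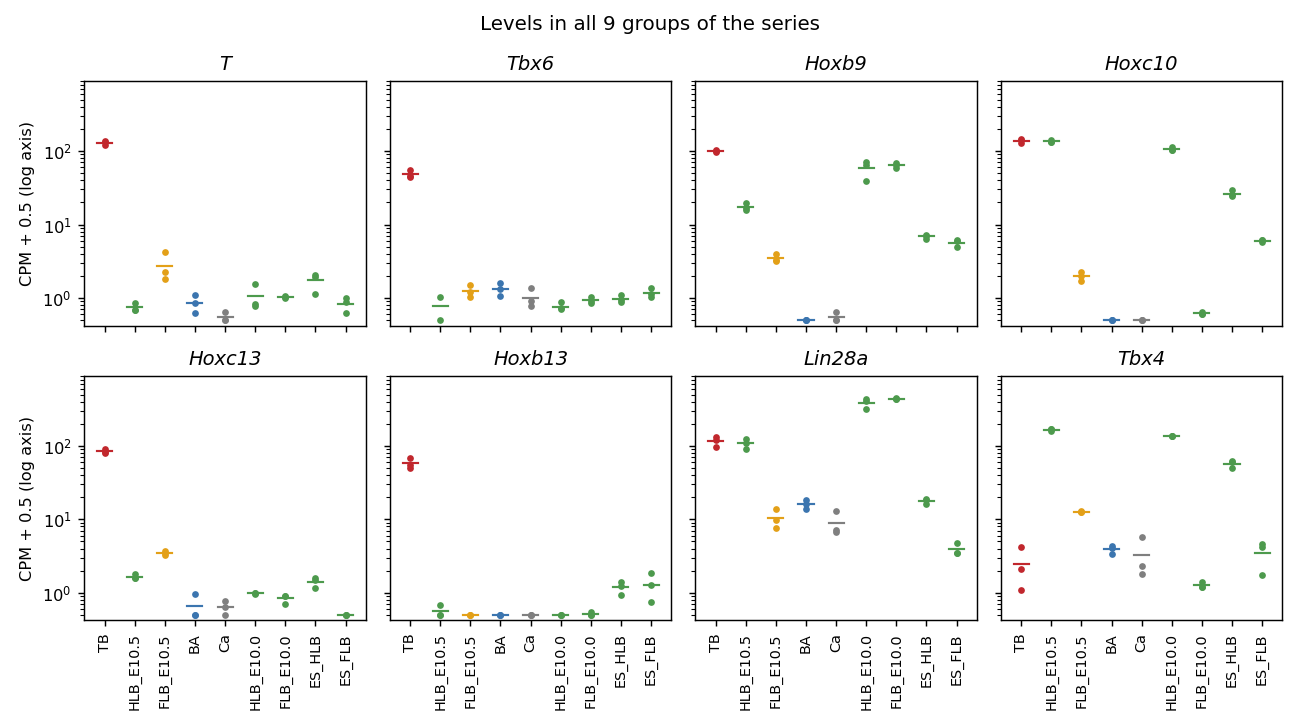
CPM + 0.5 on a log axis in all 9 groups of the series for 8 genes; points are libraries and bars their means. T, Tbx6, Hoxc13 and Hoxb13 were high in TB only, Hoxc10 and Lin28a reached the TB level in E10.5 HLBs, Hoxb9 was also high in early limb buds, and Tbx4 was low in TB and high in HLBs.

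Over the means of the 9 groups, the genes whose log2 pattern was most like that of T were Nkx1-2 (Pearson r 0.975), Hoxc13 (0.971), Hoxc12 (0.971), Dll3 (0.968) and Wnt3a (0.964). For Tbx6 they were Fam181a (0.990), Hes5 (0.987), S1pr5 (0.987), Msx3 (0.983) and Msgn1 (0.983). These are descriptions over 9 points among 10811 genes with at least 5 CPM in TB. Msx3 stands in the neural tube list, Msgn1 in the presomitic list and Hes5 in both.

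A further set of genes was found in TB and at 0 reads in all 9 other libraries. It held 10 genes, of which Hoxb13, Cdx4, Msgn1, Hoxc11, Msx3 and Olig2 are described above. The other four, Hotair, Hes3, B230323A14Rik and Prdm13, were picked out after their values were seen. Hotair, a non-coding RNA transcribed within the Hoxc cluster, stood at 14.7, 11.9 and 12.4 CPM in TB, at least 30.5-fold above the mean floor of the 9 libraries. Hes3, a neural repressor, stood at 3.157, 5.30 and 4.53 CPM, at least 10.2-fold above it, and Prdm13, a dorsal neural tube factor, at 2.78, 3.53 and 2.09 CPM, at least 6.57-fold.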

How the data were processed

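The deposited values are CPM of reads on genes, made by the authors from single-end TruSeq Stranded mRNA reads. The submitters' processing notes name FastQC 0.11.5, HISAT2 2.0.4, Cufflinks 2.1.1, Cuffdiff, edgeR 3.16.2 and mm10. The strand setting of the counting is not given in the sources used here. The 12 libraries were scaled by an unweighted trimmed mean (30% and 5% trims) with factors of 0.907 to 1.04. Genes with at least 1 CPM in 3 libraries were fitted with limma 3.58.1 (R 4.3.3, trend and robust) on log2(CPM + 0.5), 1 model of 4 groups, with Benjamini-Hochberg adjustment. Count models were not run, since the files hold no counts. Depth was read from the spacing of low CPM values, of which 98.8% to 99.2% were whole reads within 0.1. The genes named were those of the 24 lists and the 15 higher and 10 lower specific genes with the largest difference from the 3 tissues, no overlap, and a mean of at least 16 CPM in TB or in each other tissue. Members and lists were chosen with earlier results of these data known. The 8466 missing values of E10.5 HLB replicate 2 were kept missing. The scripts were tested on simulated data. A few genes that belong to the lists or to the named genes are not reported here.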

Additional observations from a re-analysis of the deposited data

How the results depend on the processing

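No call among the tail-bud-specific genes of the lists changed its sign under any alternative run. Leaving out each library in turn kept 865 to 1135 of the 1174 higher and 708 to 843 of the 875 lower genes. Of 150 specific genes of the lists, 14 were lost in at least 1 of these fits, and 21 to 22 genes of the lists could not reach the filter without a TB library. With the 9 other libraries treated as 1 group, 859 genes were higher and 584 lower than the 3 tissues, 572 were specific and lower, and 30 genes of the lists were lost, among them Cyp26a1, Cyp26b1, Aldh1a2, Shh, Lef1, Evx1, Sp8, Lin28b, Smad6, Cdkn1c, Dnmt3b, Spred2, Hk1 and Pfkm. A pseudocount of 2 left 69 genes lower over 2-fold, against 128. CPM as deposited moved the median of all genes to 0.04 on the log2 scale and kept 1164 higher and 709 lower specific genes. The fit with a replicate block kept 1154 and 859 and lost no call of the lists. Deviations of same-numbered libraries correlated at −0.075 to 0.141. Own number was the best match in 22 of 36 comparisons, each a choice among 3 replicates. It was best in 2 or 3 of 3 for every library of BA, Ca and FLB, and in 0 or 1 of 3 for those of TB. The main fit did not pair samples by number, and whether equal numbers mark a shared origin was not tested. Depth limits low genes, as 3 reads are worth up to 0.541 CPM. The edgeR and DESeq2 fits on whole reads were not run. The limma-voom fit on approximately recovered reads, chosen after seeing the data, kept 1168 and 799.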
